A study of Arabidopsis thaliana with 54 samples.

Results

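AT5G44440 is an Arabidopsis thaliana gene of the berberine bridge enzyme-like (BBE-like) family. It was described here through the brightest array feature that names AT5G44440 and no other gene. The array holds 1 such feature among 38408 features in all, of which 16746 name exactly 1 gene. The gene was picked for its fall in control cotyledons between 1.5 and 25.5 h and is described over all 18 groups of the study. Comparisons that use the control cotyledon arrays of 1.5 or 25.5 h are given as a description, with no test. The other comparisons were tested, but the gene was picked with earlier results of the same arrays known, so their p-values are no independent support. This holds also for comparisons that use the control cotyledon arrays of 13.5 h, a time that lies within the fall. RefSeq (assembly TAIR10.1) lists the gene as protein-coding on chromosome 5. No coordinates are printed, because the genome build of the array is not given in the sources used here.

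BBE-like proteins are oxidising enzymes that carry a bound flavin (FAD), and many are secreted to the cell wall. They are named after the plant enzyme that closes the berberine bridge in alkaloid synthesis, although Arabidopsis makes no such alkaloids. Characterised Arabidopsis members oxidise pectin fragments (the OGOX enzymes), cellulose fragments (CELLOX), monolignols, which are the building blocks of lignin, or an indolic defence precursor (FOX1). The cotyledons of a germinated seedling change from a storage organ to a green leaf-like organ, while the hypocotyl, the seedling stem, lengthens in shade.

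The seedlings were of the Col-0 accession and 1 day old at the start of treatment, and grew in short days of 9 h light and 15 h dark. Controls were kept in closed glass desiccators at 140 µmol m-2 s-1 photosynthetically active radiation (PAR), with 29 µmol m-2 s-1 of blue light and a red to far-red ratio of 2.1. Ethylene seedlings had the same light and 1 µl per litre of ethylene gas. Shade seedlings stood under a green filter at 40 µmol m-2 s-1 PAR, 3 µmol m-2 s-1 of blue light and a red to far-red ratio of 0.45. After 1.5, 13.5 and 25.5 h of treatment the hypocotyl was cut from the cotyledons, and roots were not kept. The cotyledon samples include the shoot apical meristem. The times 1.5 and 25.5 h lie at the same hour of successive days, in the light, and 13.5 h lies in the dark period, so that a step to or from 13.5 h also crosses light and dark.

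Each of the 18 groups has 3 arrays, 1 from each of 3 independent experiments. Every array holds RNA mixed from 2 technical replicates of 25 seedlings. The values are log2 levels as deposited. The medians of the 54 arrays ran from 4.15 to 4.55, and replicate arrays correlated with each other at 0.966 to 0.983 over all features. The mean of 4 measured stomatal lineage markers of 5 listed was 6.61 to 7.56 in cotyledon arrays and 3.45 to 5.11 in hypocotyl arrays, without overlap. CLV3, the only meristem marker measured of 5 listed, was at 1.80 to 2.64 in cotyledon arrays and 1.47 to 2.39 in hypocotyl arrays, so that it did not set the tissues apart. Of the 7 mesophyll genes listed, 1 was measured, RCA, at 11.9 to 12.3 in cotyledon arrays and 10.8 to 12.1 in hypocotyl arrays. Of 6 root hair genes listed, 2 were measured, EXPA7 and EXPA18. Their mean was 2.70 to 3.57 in cotyledon arrays and 2.55 to 7.93 in hypocotyl arrays. In 7 hypocotyl arrays, of control, ethylene and shade seedlings at 1.5 or 13.5 h, a list of 6 root lectins and beta-glucosidases averaged 5.35 to 8.86, against at most 4.97 in the other hypocotyl arrays. The same list reached 5.35 and 6.10 in 2 cotyledon arrays, replicate 3 of controls at 25.5 h and of shade at 13.5 h. The results of AT5G44440 that touch these 7 arrays are given below with and without them where the call changed. For other genes, the hypocotyl day changes and tissue differences below are given with all arrays only.

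In control cotyledons, AT5G44440 went from one of its highest levels to one of its lowest within a day. At 1.5 h the 3 control cotyledon arrays read 8.51, 8.54 and 8.57, a mean log2 level of 8.54 ± 0.03 (SD, n = 3). At 13.5 h the arrays read 2.60, 3.40 and 5.57, with a mean of 3.85 ± 1.54 (SD, n = 3). At 25.5 h they read 2.06, 2.34 and 3.85, with a mean of 2.75 ± 0.96 (SD, n = 3). All 6 later arrays lay below all 3 early ones, and the third replicate was the highest array at each time. The mean difference from 1.5 to 25.5 h was -5.79 on the log2 scale, a 55.3-fold lower level, and that to 13.5 h was -4.68, or 25.7-fold. The 25.5 h arrays lay at the 13.5th to 43.9th percentile of all features of their array. The files give no background level, so it is not known whether the transcript was still measured there, and the folds hold for the deposited values alone. Among the 17504 features with a gene, of which 17% were called in this comparison, the day change ranked first of all falls. The rank, like the size, is what the gene was chosen on and is no evidence of anything further.

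**Figure D1:**
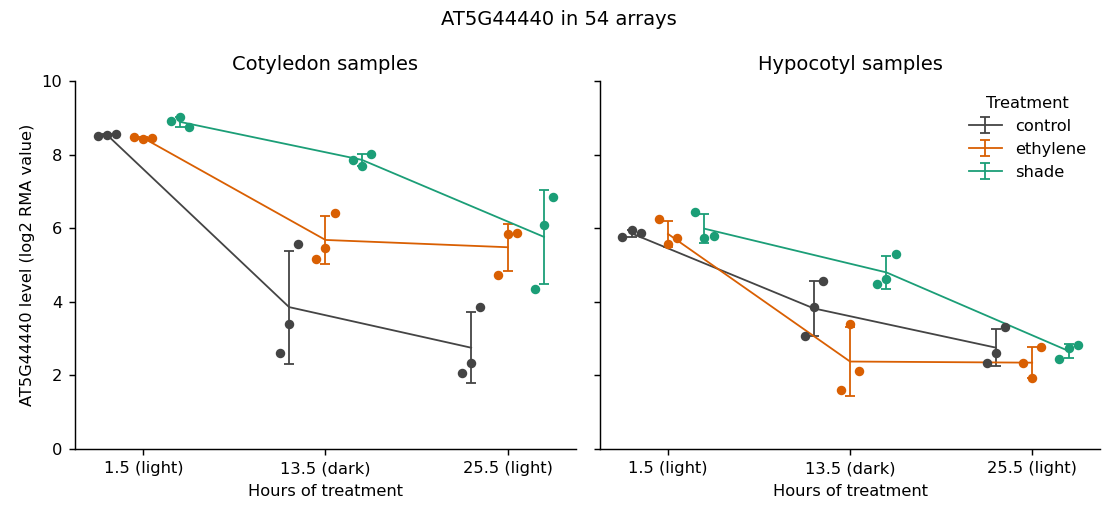
Log2 level of AT5G44440 on each of the 54 arrays against hours of treatment, with cotyledon samples on the left and hypocotyl samples on the right. Points are arrays (replicates 1 to 3 from left to right), lines join group means and bars are 1 SD of 3 arrays. The cotyledon groups start between 8.42 and 9.02, the hypocotyl groups between 5.56 and 6.43, and the control cotyledon arrays end between 2.06 and 3.85.

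The high starting level was shared by all cotyledon samples. The ethylene cotyledon arrays read 8.49, 8.42 and 8.44 at 1.5 h, a mean of 8.45 ± 0.04 (SD, n = 3), and the shade arrays 8.91, 9.02 and 8.75, a mean of 8.89 ± 0.14 (SD, n = 3). Shade was thus 0.35 above control and ethylene 0.09 below it on the log2 scale at 1.5 h. These 2 differences share the control arrays that chose the gene and were not tested. Shade minus ethylene, which uses no control array, was 0.44 ± 0.52 (SE) at 1.5 h, with an adjusted p of 0.903 (limma, 2.21% of features called), although the 3 shade arrays lay above the 3 ethylene arrays. The 95% interval of that difference ran from -0.61 to 1.50. The standard error comes from a spread pooled over all 18 groups, which for AT5G44440 had SDs from 0.03 to 1.54, so that it is wide for the quiet groups at 1.5 h and narrow for the scattered ones.

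Shaded cotyledons kept a high level of AT5G44440 into the night. At 13.5 h the 3 shade cotyledon arrays read 7.86, 7.69 and 8.02, a mean of 7.86 ± 0.17 (SD, n = 3). All of them were above every control array of the same time, which read up to 5.57. The difference of 4.00 ± 0.52 (SE) on the log2 scale, a 16-fold higher level, had a 95% interval of 2.95 to 5.06 and an adjusted p of 3.9e-06 (limma, Benjamini-Hochberg over 17504 features). In this comparison 4.54% of the features were called, and AT5G44440 had the largest rise among them. Without the third shade replicate, 1 of the 2 cotyledon arrays high in root lectins, the difference was 3.92 with an adjusted p of 4.48e-05 (limma). Because the gene was chosen with such results known, the rank and these p-values are no independent support. At 25.5 h the shade arrays had spread to 4.36, 6.10 and 6.83, a mean of 5.76 ± 1.27 (SD, n = 3). They were still above all 3 control arrays, by a mean of 3.01 or 8.08-fold, which is given without a test.

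Ethylene-treated cotyledons stood above the controls in their mean at both later times. At 13.5 h the ethylene cotyledon arrays read 5.15, 5.47 and 6.42, a mean of 5.68 ± 0.66 (SD, n = 3). They overlapped the control arrays, because the third control replicate read 5.57. The difference of 1.83 ± 0.52 (SE), 3.54-fold, had a 95% interval of 0.77 to 2.88 and was not called (adjusted p = 0.0624, limma, with 1.61% of features called). It was called with the replicate number as a block, which is given as an alternative only. Single control arrays moved the difference in both directions. Without the first control replicate it was 1.197 with an adjusted p of 0.41, and without the third it was 2.68 with an adjusted p of 0.000975. At 25.5 h the ethylene arrays read 4.74, 5.83 and 5.87, a mean of 5.48 ± 0.64 (SD, n = 3), and all lay above the control arrays. That difference, 2.73 or 6.64-fold, was not tested, for it shares control arrays with the fall that chose the gene.

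Shade and ethylene differed from each other in cotyledons at 13.5 h, the time at which the shade level was still high. Shade exceeded ethylene by 2.18 ± 0.52 (SE), 4.53-fold, with an adjusted p of 0.00722 (limma, 4.8% of features called). The call was lost without the first ethylene replicate, where the difference was 1.91 and the adjusted p 0.0596. At 25.5 h the arrays of both treatments overlapped and shade minus ethylene was 0.28, with a 95% interval of -0.77 to 1.33 and an adjusted p of 0.827 (limma, 12.4% of features called).

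The gene fell over the day in every treated cotyledon group as well, but by less than the 5.79 of the controls. From 1.5 to 25.5 h it fell by 2.97 ± 0.52 (SE) under ethylene, a 7.83-fold lower level (adjusted p = 5.49e-05, limma, 12.9% of features called). Under shade it fell by 3.13 ± 0.52 (SE), 8.75-fold (adjusted p = 1.18e-05, limma, 19% of features called). The groups did not overlap in either comparison. The day change thus differed from that of the controls by 2.82 under ethylene and 2.66 under shade, which is described only, since both use the control fall. In these 2 comparisons 0.84% and 0.131% of features were called. Shade minus ethylene for the day change was -0.16 ± 0.74 (SE), with a 95% interval of -1.65 to 1.33 and an adjusted p of 0.975 (limma, 1.37% of features called). In hypocotyls the same quantity was 0.18, with an adjusted p of 0.914 (14.4% of features called).

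The fall was split between the 2 intervals as follows. Under ethylene the cotyledon level fell by 2.77 from 1.5 to 13.5 h (adjusted p = 8.36e-05, limma, 17.6% of features called), and the second step was -0.20 with an adjusted p of 0.867 (23.6% of features called). Under shade the first step was -1.03 and not called (adjusted p = 0.201, limma, 16.5% of features called), although the groups did not overlap. It was called in a fit of those groups alone (adjusted p = 0.00394). The second step under shade was a fall of 2.09 (adjusted p = 0.00201, limma, 23.5% of features called). Leaving out the first shade replicate at 25.5 h gave -1.39 and an adjusted p of 0.0562, and leaving out replicate 1 of every group an adjusted p of 0.0774. No test of the difference between the steps of the 2 treatments was made.

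Hypocotyls began the experiment at a lower level than cotyledons and fell under all 3 treatments. Control hypocotyl arrays read 5.75, 5.94 and 5.88 at 1.5 h (mean 5.86 ± 0.10, SD, n = 3). They read 3.06, 3.84 and 4.56 at 13.5 h (mean 3.82 ± 0.75, SD, n = 3), and 2.35, 2.61 and 3.30 at 25.5 h (mean 2.75 ± 0.49, SD, n = 3). The early arrays lay above all the later ones. The day change was a fall of 3.11 ± 0.52 (SE), 8.61-fold, with an adjusted p of 8.89e-06 (limma, 31.9% of features called). The first step, a fall of 2.04, was called at an adjusted p of 0.00215 (limma, 31.2% of features called), and the second, -1.07, was not (adjusted p = 0.155, 22.2% of features called). The root hair genes EXPA7 and EXPA18 also fell over this day, by 3.49 and 4.46 (adjusted p = 4.95e-09 and 2.85e-08, limma). Both were called lower under ethylene and shade too. The part of sample make-up in the fall of AT5G44440 was not tested. Of the 6 control hypocotyl arrays at 1.5 and 13.5 h, 4 are among the 7 high in root lectins. Without the 7 arrays the first step was -2.10 with an adjusted p of 0.139, in groups of 1 array each whose spread is taken from the other groups.

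In ethylene hypocotyls the called step was the first. The arrays read 6.25, 5.56 and 5.72 at 1.5 h (mean 5.84 ± 0.36, SD, n = 3), then 1.59, 3.40 and 2.13 at 13.5 h (mean 2.37 ± 0.93, SD, n = 3). At 25.5 h they read 2.33, 1.92 and 2.78 (mean 2.34 ± 0.43, SD, n = 3). The later groups overlap each other and neither overlaps the first. The fall over the day was 11.3-fold, -3.50 ± 0.52 (SE), with an adjusted p of 2.1e-06 (limma, 24.7% of features called). The first step was -3.47 with an adjusted p of 1.4e-06 (26.6% of features called), and the second was -0.03 with an adjusted p of 0.984 (limma, 19.9% of features called). The arrays at 13.5 and 25.5 h lay between the 5.55th and 40.9th percentile of all features. Without a background level, a further fall there could not have been seen with certainty, and the folds hold for the deposited values alone.

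In shaded hypocotyls the level stood lower at each later time. The arrays read 6.43, 5.72 and 5.80 at 1.5 h (mean 5.99 ± 0.39, SD, n = 3) and 4.47, 4.62 and 5.30 at 13.5 h (mean 4.80 ± 0.44, SD, n = 3). At 25.5 h they read 2.44, 2.73 and 2.81 (mean 2.66 ± 0.20, SD, n = 3). None of the 3 groups overlapped another. The day change was -3.33 ± 0.52 (SE), a 10-fold lower level (adjusted p = 6.72e-06, limma, 17.2% of features called). Here the first step was -1.19 and not called (adjusted p = 0.105, limma, 21.7% of features called), while the second was a fall of 2.14 (adjusted p = 0.00201, 18.9% of features called). The first step was called under 4 alternatives, with adjusted p from 0.0215 to 0.0305, among them fits of its own groups and of the hypocotyl arrays alone.

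Against the control hypocotyls of the same time, no treatment difference was called in the fit of all groups. At 1.5 h ethylene minus control was -0.01 (adjusted p = 0.999, limma, 3.03% of features called) and shade minus control 0.13 (adjusted p = 0.913, 12.4% of features called), with overlapping arrays. At 13.5 h ethylene was lower by 1.45 ± 0.52 (SE), with a 95% interval of -2.50 to -0.39 and an adjusted p of 0.0638 (limma, 12% of features called). This value is close to the threshold, and it was called under some alternatives, among them the replicate number as a block. Leaving out the first control replicate gave -1.83 and an adjusted p of 0.0332, and leaving out the second ethylene replicate gave -1.96 and 0.0174. Without the 7 arrays high in root lectins it was -1.08 with an adjusted p of 0.559. Shade at 13.5 h was higher by 0.98, with a 95% interval of -0.08 to 2.03 and an adjusted p of 0.287 (limma, 10.8% of features called). At 25.5 h the differences were -0.41 under ethylene (adjusted p = 0.701, limma, 22.9% of features called) and -0.09 under shade (adjusted p = 0.952, 15.3% of features called).

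Set against each other, the 2 treatments did separate in hypocotyls at 13.5 h. All 3 shade arrays lay above all 3 ethylene arrays, by 2.42 ± 0.52 (SE) or 5.36-fold, with an adjusted p of 0.000663 (limma, 14.7% of features called). At 1.5 h shade minus ethylene was 0.14 (adjusted p = 0.896, limma, 16.8% of features called) and at 25.5 h it was 0.32 (adjusted p = 0.766, 20% of features called).

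**Figure D2:**
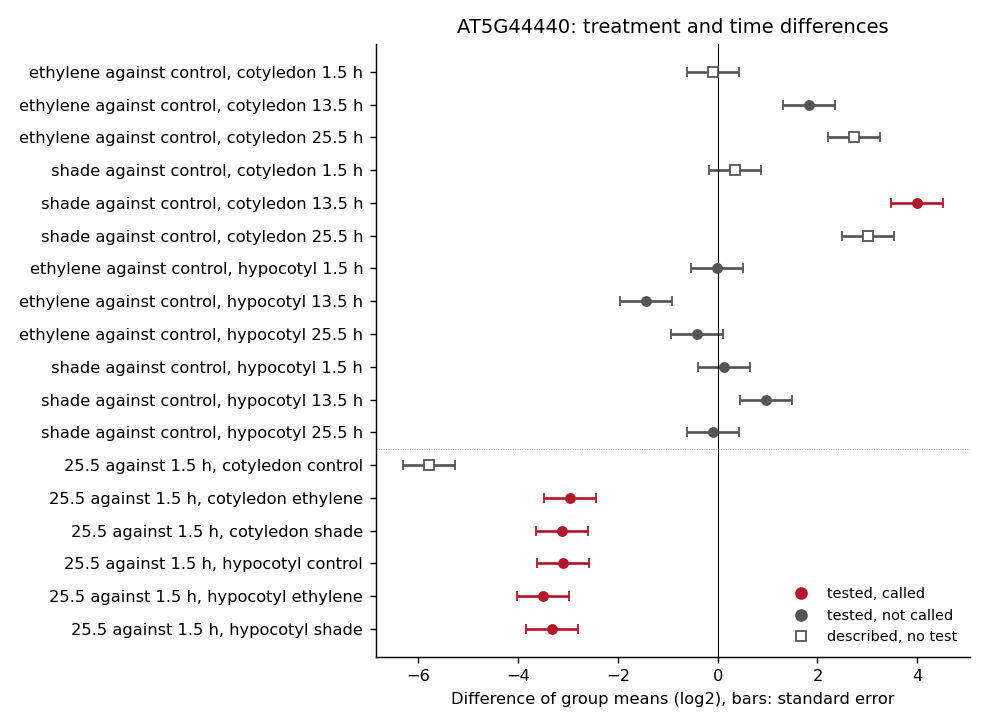
Differences of AT5G44440 group means on the log2 scale, with bars of 1 standard error (0.52), for treatment against control above the dotted line and for 25.5 against 1.5 h below it. Red points were called, grey points were tested and not called, and open squares were given without a test. The shade rise in cotyledons at 13.5 h (4.00) and the 5 tested day falls (-2.97 to -3.50) are the called values shown.

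The gene was lower in hypocotyls than in cotyledons wherever the seedlings were treated. Under ethylene the hypocotyl level was 6.09-fold lower at 1.5 h (-2.61, adjusted p = 6.21e-05, limma), 9.89-fold at 13.5 h (-3.31, adjusted p = 1.52e-06) and 8.81-fold at 25.5 h (-3.14, adjusted p = 3.44e-06). Under shade it was 7.49-fold lower at 1.5 h (-2.91, adjusted p = 1.33e-05, limma), 8.35-fold at 13.5 h (-3.06, adjusted p = 7.83e-06) and 8.59-fold at 25.5 h (-3.10, adjusted p = 7.37e-06). The arrays of the 2 tissues did not overlap in any of these 6 comparisons. Tissue differences were common, with 42.7%, 35% and 34.6% of features called under ethylene and 35.5%, 28.7% and 27% under shade at the 3 times. In whole tissue samples, fewer cells of a type that holds the transcript and less transcript per cell cannot be told apart.

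In control seedlings the tissues stood apart at 1.5 h and overlapped at the later times. At 1.5 h the control hypocotyl level was 2.68 below that of the cotyledon, or 6.41-fold, given without a test. At 13.5 h the arrays of both tissues overlapped and the difference was -0.03, with a 95% interval of -1.09 to 1.02 and an adjusted p of 0.974 (limma, 30.5% of features called). At 25.5 h both tissue means were 2.75, at low percentiles of all features (13.5 to 43.9 in cotyledon arrays and 23.3 to 38.5 in hypocotyl arrays), so that equal values there do not show equal amounts of transcript. The stomatal lineage markers set the tissues apart on all arrays, those controls included.

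The response to treatment at 13.5 h differed between the tissues by the test of the difference itself. The ethylene response was lower in hypocotyl than in cotyledon by 3.27 ± 0.74 (SE), with a 95% interval of -4.76 to -1.78 and an adjusted p of 0.00623 (limma, 3.12% of features called). It was a value of -1.45 in hypocotyl against 1.83 in cotyledon, neither of which was called alone. The shade response was lower in hypocotyl by 3.03 ± 0.74 (SE), with a 95% interval of -4.52 to -1.54 and an adjusted p of 0.0127 (limma, 3.91% of features called). Without the first control cotyledon replicate at 13.5 h the latter was -2.40 with an adjusted p of 0.0635. Without the 7 arrays high in root lectins the ethylene difference was -2.91 with an adjusted p of 0.083, which left a single control hypocotyl array at 13.5 h. Both calls were also lost in a fit of their own groups (adjusted p = 0.172 for ethylene and 0.153 for shade) and without replicate 1 or replicate 2 of every group. Both tests share the control arrays of both tissues, and with them the cotyledon comparisons above. The day change, by contrast, was not called different between tissues under ethylene (-0.53, 95% interval -2.02 to 0.96, adjusted p = 0.713, 11.8% of features called) or shade (-0.20, 95% interval -1.69 to 1.29, adjusted p = 0.928, 9.92% of features called).

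Over all 18 groups the order of the mean log2 levels had 4 groups without overlap at its top and little order below. Cotyledons under shade at 1.5 h stood first, then control and ethylene cotyledons at 1.5 h, then shade cotyledons at 13.5 h. Each of these 4 groups lay apart from the next with no overlap of arrays. The gaps among the cotyledon groups at 1.5 h were small, at 0.35 and 0.09, and shade minus ethylene there was not called. The 3 hypocotyl groups at 1.5 h came next, together with shade cotyledons at 25.5 h and ethylene cotyledons at 13.5 and 25.5 h, all between 5.48 and 5.99. Shade hypocotyls at 13.5 h followed at 4.80, control cotyledons and hypocotyls at 13.5 h at 3.85 and 3.82, and the last 5 groups lay between 2.34 and 2.75. Of the 17 neighbouring pairs in this order, 6 had a gap above the larger of their SDs. In all, 42 comparisons of the gene were tested, of which 3 were called higher, 18 lower and 21 not called, and 16 were given without a test.

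Most members of the family of AT5G44440 had a named feature, but many of them read low. The family list holds 27 genes, and 23 of the 26 besides AT5G44440 had a feature of their own. AT1G01980, AT2G34790 and AT4G20840 were not analysed here. The range of group means was 6.55 for AT5G44440 and 0.25 to 4.16 for the others, with AT5G44380 the widest. Mean levels of the 23 ran from 1.46 for AT4G20800 to 5.87 for AT5G44410. Without a background level, a fall of a low relative could not have been seen with certainty, which limits all counts of lower calls below. In control cotyledons from 1.5 to 25.5 h, 0 of the 23 were called lower (9.93% of all features were) and 2 higher (7.08% of all features). These 2 were OGOX3 (AT1G11770), an oligogalacturonide oxidase, at 0.44 (adjusted p = 0.0186, limma) and AT5G44410 at 0.49 (adjusted p = 0.0419). The median change of the 23 was 0.18, against 0.02 over all features tested.

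In shade cotyledons at 13.5 h, 1 of the 23 was called higher, where 2.05% of all features were, and 0 lower, where 2.5% were. It was AT2G34810, with a rise of 0.91 (adjusted p = 0.025, limma). The family median was 0.09, against 0.02 over all features. In ethylene cotyledons at 13.5 h none of the 23 was called in either direction (adjusted p by limma), against 0.948% and 0.663% of all features called higher and lower, and their values ran from -0.72 to 0.85. At 25.5 h, AT5G44390 rose by 1.87 under ethylene in cotyledons (adjusted p = 3.81e-06, limma, 1 of 23 higher against 2.84% of all features). It had risen by 1.36 already at 1.5 h (adjusted p = 0.0021, limma, with 0.531% of all features called higher). OGOX1 (AT4G20830), another oligogalacturonide oxidase, fell by 1.23 at 1.5 h and by 0.83 at 25.5 h in shade cotyledons (adjusted p = 0.001 and 0.00908, limma). There 0.32% and 3.9% of all features were called lower.

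**Figure D3:**
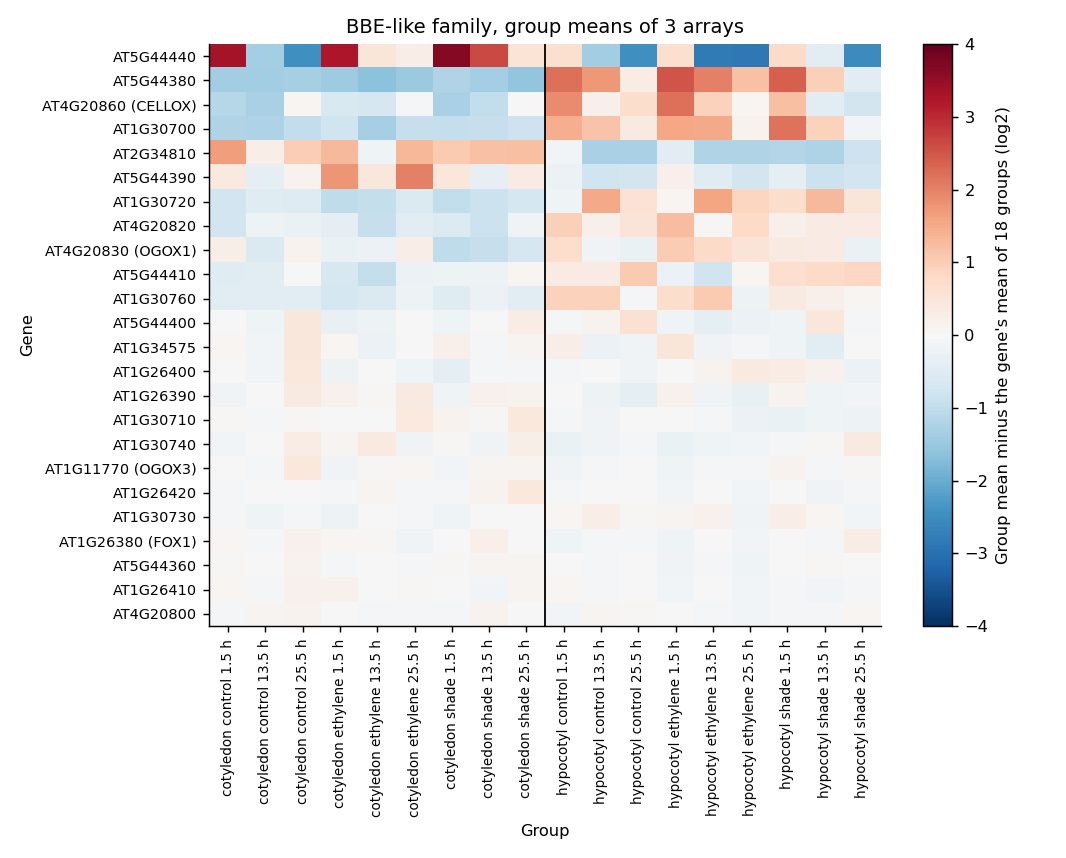
Group means of AT5G44440 and the other 23 measured BBE-like genes, each minus the gene's own mean over the 18 groups (log2, colour scale), with the 9 cotyledon groups left of the line and the 9 hypocotyl groups right of it. Genes are sorted by their range of group means, from 6.55 for AT5G44440 to 0.25 for AT4G20800. AT5G44440 is high in cotyledons at 1.5 h, while AT5G44380, CELLOX and AT1G30700 have their highest group means in hypocotyls at 1.5 h.

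In hypocotyls the count of relatives called lower over the day was 4 to 6 of 23. From 1.5 to 25.5 h, 5 of the 23 were called lower in controls (21.8% of all features), 6 under ethylene (17.8%) and 4 under shade (8.98%). The control count is the share found over all features, so that it is no trait of the family. Higher calls numbered 2 in controls (10.1% of all features) and 0 under ethylene and shade (6.93% and 8.2%). AT5G44380 fell by 1.92 in controls, by 1.34 under ethylene and by 2.81 under shade (adjusted p = 0.00252, 0.0449 and 4.75e-05, limma). CELLOX (AT4G20860), the cellodextrin oxidase, fell by 2.13 under ethylene and 1.92 under shade (adjusted p = 0.000528 and 0.0022), and was called lower in controls too (adjusted p = 0.0419). AT1G30700 fell by 2.28 under shade (adjusted p = 0.00135) and by 1.39 under ethylene (adjusted p = 0.0463). In cotyledons, over the same interval, none of the 23 was called lower under ethylene or shade, against 6.9% and 10% of all features. CELLOX there rose by 1.28 under shade (adjusted p = 0.0453, limma, 2 of 23 higher against 8.95% of all features).

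Relatives were called in both directions between the tissues. At 1.5 h under ethylene 7 of the 23 were called higher in hypocotyl (26.9% of all features) and 2 lower (15.8%). Under shade at 1.5 h the counts were 7 higher (18.5%) and 2 lower (17.1%). Under ethylene more features of the whole array were called higher than lower in hypocotyl too, while under shade the 2 shares lay close together. With 23 genes and no test of the list, the counts are not read as a trait of the family. AT5G44380 was higher in hypocotyl by 3.93 under ethylene and 3.58 under shade (adjusted p = 1.46e-08 and 1.2e-07, limma), where AT5G44440 was lower by 2.61 and 2.91. CELLOX was higher by 2.81 and 2.51, AT1G30700 by 2.33 and 3.13, and AT1G30760, which oxidises monolignols, by 1.41 and 0.86. The 2 called lower in both were AT2G34810, at -1.72 and -2.22, and AT5G44390, at -1.54 and -0.83. These 2 also had group means most like those of AT5G44440 within the family, with Pearson correlations of 0.67 and 0.56 over 18 groups. AT1G30720 was the most opposite, at -0.66. Both correlations share the tissue difference, and they include the control cotyledon groups, whose fall from 1.5 to 25.5 h chose the gene.

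In cotyledons AT2G34810 shared the control fall from 1.5 to 13.5 h and the higher shade level at 13.5 h, on a smaller scale. Its group means in control cotyledons were 5.16, 3.76 and 4.48 at the 3 times, and in shade cotyledons 4.54, 4.66 and 4.69. Unlike AT5G44440, its mean did not fall over the day in shade cotyledons, and it stood below control there at 1.5 h. The control level fell by 1.41 from 1.5 to 13.5 h (adjusted p = 3.22e-05, limma, 8.96% of features called lower) and rose by 0.73 from 13.5 to 25.5 h (adjusted p = 0.0248, 11.3% of features called higher). AT5G44440 had a mean lower by 1.10 at 25.5 h than at 13.5 h in control cotyledons, with overlapping arrays and no test.

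Among 3160 genes whose group means ranged over at least 2 log2 units, the 8 most like AT5G44440 had Pearson correlations of 0.799 to 0.877 over the 18 group means. They were AT1G70430, AT2G07721, hemf2 (AT4G03205), AT5G02890, HEME2 (AT2G40490), AT2G44280, AT4G20690 and AT5G10690. HEME2 and hemf2 carry the names of tetrapyrrole synthesis enzymes, which make the precursors of haem and chlorophyll. Of the 8, 4 were also among the top 8 by Spearman correlation and 5 when the 3 control cotyledon groups were left out. The most opposite were AT1G63310, AT5G54940, AT2G46630 and AT5G42050, at -0.827 to -0.797. These genes were picked by this likeness, so the correlations are descriptions of 18 points that share tissue and time.

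The 8 genes were picked on group means that include the control cotyledons, so a shared direction of the day change there follows largely from the choice. Their differences between shade and control cotyledons were smaller in size than that of AT5G44440. In control cotyledons the 8 genes changed over the day by -2.82 to -0.83, where AT5G44440 changed by -5.79. In shade against control cotyledons they changed by -0.16 to 0.65 at 13.5 h and by -0.45 to 0.69 at 25.5 h, beside 4.00 and 3.01 for AT5G44440. Under ethylene at 25.5 h they ran from -0.52 to 2.23, beside 2.73 for AT5G44440. AT2G44280 was the highest of the 8 in all 3 of these comparisons, and its cotyledon mean at 25.5 h was 7.79 under ethylene and 5.56 in controls. These comparisons share their control arrays. Deviations of single arrays from their group means were not used to choose the 8. Over 54 arrays they correlated with those of AT5G44440 at a median of 0.24 over the 8 and 0.03 over all 3160. The 8 ran from -0.03 for hemf2 to 0.46 for AT2G44280. The deviations of AT5G44440 also went with the replicate number, so these correlations are a description only.

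**Figure D4:**
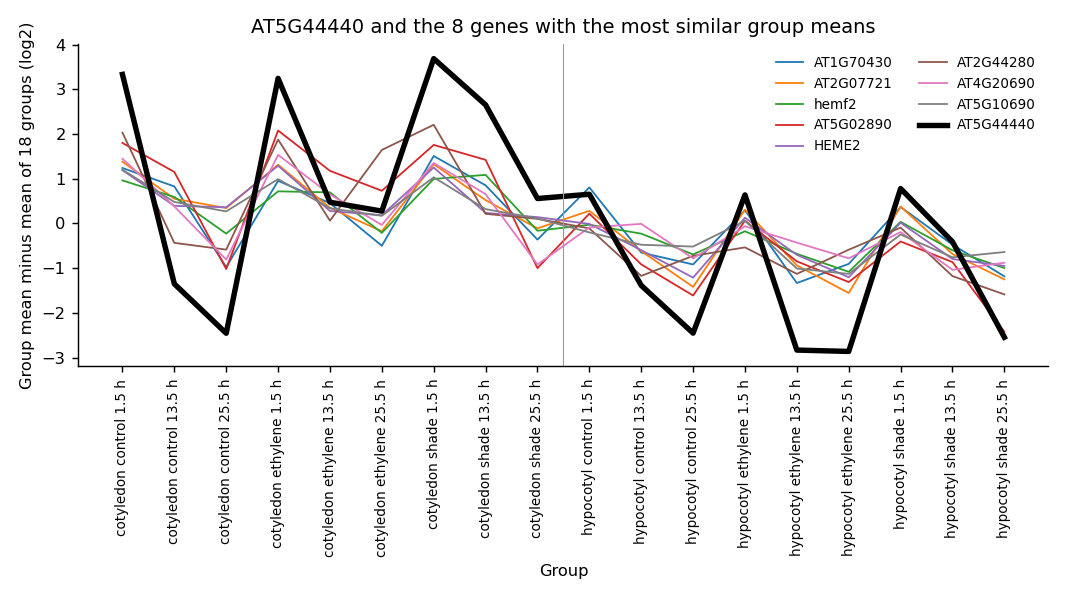
Group means of AT5G44440 (black) and of the 8 genes with the most similar group means (coloured), each minus its own mean over the 18 groups, on a log2 scale. Cotyledon groups stand left of the line and hypocotyl groups right of it. All lines are high at 1.5 h in cotyledons, and AT5G44440 swings over 6.55 log2 units, more than any of the 8 (2.17 to 4.50).

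The neighbours of AT5G44440 on chromosome 5 had narrower ranges of group means. In the order of the RefSeq table, AT5G44418 (a transcribed pseudogene, not analysed here), PDF1.2 and PDF1.2c lie before it, and AT5G44450, CML43 and AT5G44470 after it. PDF1.2 encodes a plant defensin induced by jasmonate together with ethylene, and its group means stayed between 1.37 and 1.92. PDF1.2c lay between 1.78 and 2.22. AT5G44450 lay between 7.54 and 8.92, with a correlation of 0.38 to AT5G44440 over the 18 group means. CML43, a calmodulin-like calcium sensor, lay between 2.53 and 3.69, and AT5G44470 between 2.35 and 3.06.

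Few genes of the pathways in which BBE-like enzymes act had a named feature. Of 11 genes of pectin fragments and their sensing 1 was measured, ADPG1, a polygalacturonase, whose arrays lay between 1.95 and 3.06. Of 12 monolignol genes 1 was measured, HCT, at 7.48 to 9.56 in cotyledon arrays and 8.16 to 9.68 in hypocotyl arrays. None of 6 genes of indolic defence compounds and none of 11 genes of seed storage proteins and oil bodies had a named feature of its own here, so that these lists give no count.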

How the data were processed

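RNA of 54 samples was hybridised to Affymetrix Arabidopsis Gene 1.1 ST arrays. The deposited values are log2 levels from RMA at the core gene level, made by the authors in Expression Console 1.4, per the labels. Transcriptome Analysis Console 3.0 is named in the submitters' processing notes. RMA normalizes probes between arrays before summarising them to features, so that levels are relative; which arrays were normalized together is not given in the sources used here. The genome build is not given in the sources used here. Features were named through the platform annotation: 16746 name 1 gene, 758 several and 20904 none, and 16601 matched a RefSeq locus.

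A mean per group was fitted with limma 3.58.1 (R 4.3.3) over all 54 arrays and 17504 features with a gene. Differences were called at a Benjamini-Hochberg adjusted p under 0.05 within each comparison. Total degrees of freedom were 40.67. No filter or pseudocount was used. With 3 against 3 arrays an exact permutation test cannot go below p = 0.1, so the fit across features was used. The number of arrays limits the precision. The 3 arrays of a group come from separate experiments, and each pools 2 technical replicates.

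The gene, the lists and the rules for naming genes were chosen with earlier results of these data known. Named were family members called in a tested comparison with a change of at least 1, the 8 most alike and 4 most opposite genes, and 3 neighbours on each side. OGOX3 and AT4G20800 were named after their values were seen. The part of the rule on protein likeness was not used here, since no protein sequence was at hand. Alternatives were quantile normalization, centring on 8 of 13 reference genes, other feature sets, array weights, fewer groups in the fit, a replicate block, and leaving out arrays. The fit was tested on simulated data.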

Additional observations from a re-analysis of the deposited data

Results flagged for a closer look

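A pair of results was marked because the response of AT5G44440 to a treatment differed between the tissues by a test of the difference. At 13.5 h the ethylene response in hypocotyl minus that in cotyledon was -3.272 on the log2 scale (adjusted p = 0.00623, limma), made up of -1.45 in hypocotyl and 1.83 in cotyledon. The shade response in hypocotyl minus that in cotyledon was -3.027 (adjusted p = 0.0127, limma), made up of 0.98 and 4.00. Both lost their call in a fit of their own groups (adjusted p = 0.172 and 0.153) and without replicate 1 or replicate 2 of every group. Both rest on the same 3 control cotyledon arrays at 13.5 h, which read 2.60, 3.40 and 5.57. Both also rest on the 3 control hypocotyl arrays, of which 2 are high in root lectins. The ethylene result further rests on the first ethylene hypocotyl replicate at 13.5 h, also high in root lectins (6.88), where AT5G44440 read 1.59. The part of these arrays in the result was not tested beyond the values without them given above and under the processing alternatives.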

How the results depend on the processing

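No value changed sign under an alternative where it had been called. Of all values over all alternatives, 815 kept their side of the threshold, 13 passed it, 16 lost it and 3 counts of family members moved. The shade rise in cotyledons at 13.5 h, the 5 tested day falls and the 6 treated tissue differences were called under every alternative run. The cotyledon ethylene difference at 13.5 h (1.83, not called) was called with the replicate number as a block (adjusted p = 0.0176) and without replicate 3 of every group (2.312, adjusted p = 0.00964). Leaving out single replicates gave 1.197 to 2.683. The hypocotyl ethylene difference at 13.5 h (-1.446) was called with the block (adjusted p = 0.0247), in a fit of the hypocotyl arrays alone (adjusted p = 0.0157) and after centring on the reference genes (-1.603, adjusted p = 0.029). Its range over single replicates left out was -1.959 to -1.057. The tissue difference of the ethylene response (-3.272) lost its call in a fit of its own groups (adjusted p = 0.172), without the 7 arrays high in lectins (-2.906), and without replicate 1 (-2.9) or 2 (-3.651) of every group, with -4.129 to -2.643 over single replicates. That of the shade response (-3.027) lost it in a fit of its own groups (adjusted p = 0.153), without replicate 1 (-2.617) or 2 (-2.783) of every group, and ran from -3.885 to -2.398 over single replicates. Shade minus ethylene in cotyledons at 13.5 h was not called without replicate 1 (1.914) or 2 (2.155) of every group, and ran from 1.913 to 2.549. Among the steps within the day, the hypocotyl shade fall from 13.5 to 25.5 h was -2.258 with an adjusted p of 0.0571 without replicate 2 of every group, and the first hypocotyl shade step was called with array weights (-1.401, adjusted p = 0.0286), in fits of its own groups (adjusted p = 0.0215) or tissue (0.0305), and without replicate 3 of every group (-1.533, adjusted p = 0.028). The first hypocotyl control step was not called without replicate 2 of every group (-2.008, adjusted p = 0.071). The control fall over the day lay between -6.34 and -5.445. Leaving out a replicate of every group was chosen after seeing the data. The cause of these changes was not tested. Same-numbered arrays of a tissue correlated in their deviations at -0.267 to 0.462 (median 0.045), against a median of -0.0211 for different numbers. The labels do not say that a number marks an experiment across groups, and the pairs do not all correlate, so the block is given only as an alternative. As a hint from the data, 46 of 54 arrays correlated best with their own number. The block changed no other call of AT5G44440. Centring on the reference genes moved the median change of all features to between -0.354 and 0.167 over the comparisons. The alternative of another feature was not run, since AT5G44440 has 1.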

Other observations

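ICL, the isocitrate lyase that seedlings use to turn seed oil into sugar, also fell over the day, in both tissues and under all 3 treatments. It and SDP1, the lipase that starts seed oil breakdown, were the 2 measured genes of 7 listed for seed oil use. Its mean log2 level in control cotyledons was 11.29, 8.30 and 7.46 at 1.5, 13.5 and 25.5 h, and under ethylene it was 11.18, 9.55 and 9.96. At 25.5 h ethylene exceeded control by 2.50 (adjusted p = 1.36e-05, limma, 2.84% of features called higher), while shade minus control was 0.17 (adjusted p = 0.879). The day change was higher under ethylene than in controls by 2.61 (adjusted p = 0.00703, limma, 0.84% of features called). In hypocotyls shade lowered ICL by 2.26 at 13.5 h (adjusted p = 4.39e-05, limma) and by 2.26 at 25.5 h (adjusted p = 1.76e-05, limma), where AT5G44440 differed by 0.98 and -0.09. The day change of ICL was -3.81 in shade cotyledons, and -2.26, -3.23 and -4.50 in control, ethylene and shade hypocotyls. Control hypocotyls exceeded control cotyledons in ICL by 2.47 at 13.5 h and 2.45 at 25.5 h, where AT5G44440 differed by -0.03 and 0.00. SDP1 went another way in several of these comparisons. It fell in control cotyledons over the day by 0.76 (adjusted p = 1.98e-05, limma), and ethylene minus control in cotyledons at 25.5 h was 0.28 (adjusted p = 0.262). Shade raised SDP1 at 25.5 h by 1.11 in cotyledons (adjusted p = 4.11e-08, limma) and by 0.82 in hypocotyls (adjusted p = 3.98e-06). The comparisons with control share their control arrays.

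Deviations of AT5G44440 from its group means went with the replicate number. They averaged -0.35 in replicate 1, -0.03 in replicate 2 and 0.38 in replicate 3 over the 18 groups. Replicate 3 was the highest array in 12 of 18 groups and replicate 1 the lowest in 12.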
